A study of Mus musculus with 22 samples.

Results

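Retinal microglia that had taken up injected apoptotic neurons were compared with microglia from the same kind of eyes that had not, in wild-type and in Apoe -/- mice, and the object of this account is the difference between those 2 responses. It was computed for each gene as the log2 change between phagocytic and non-phagocytic cells in Apoe -/- minus the same change in wild type, the interaction of genotype and sort. All 22 pools of the series entered it: 5 phagocytic and 5 non-phagocytic pools from C57BL/6 wild-type mice, and 6 of each from the strain labelled Apoe KO with the genotype Apoe -/-. Every mouse was 12 weeks old, and every eye had received apoptotic neurons by injection into the vitreous, the gel behind the lens, so that no group was without injected cells. Microglia were taken as the sorted CD11b+ Fcrls+ cells that lacked Ly6c, and phagocytic cells were those that carried Alexa488, the dye of the injected neurons. The file header gives the time as 24 h after injection. Each pool held 5 to 6 retinas of mice of 1 sex and genotype, and 100 to 500 phagocytic cells were collected per pool. The labels give Apoe -/- as the genotype of the mouse, with no restriction to a cell type.

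Microglia clear dying neurons by recognising phosphatidylserine on their surface, engulfing them and digesting them in lysosomes. The cargo leaves the cell with cholesterol, fatty acids and iron to store or export. APOE is an apolipoprotein that microglia secrete to carry cholesterol away. It is known as a regulator of the neurodegenerative microglial state called MGnD, in which homeostatic genes are lowered and genes such as Spp1, Gpnmb and Lgals3 are raised.

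The targeted gene followed the labels. Apoe measured 1393, 5145, 2143, 1317 and 1383 CPM (reads of a gene scaled to the size of its library) in the 5 wild-type phagocytic pools and 869, 1604, 1258, 906 and 1227 CPM in the wild-type non-phagocytic pools. In the Apoe -/- pools it ranged from 8.91 to 34.9 CPM (median 15.4) in phagocytic cells and from 7.02 to 17.6 CPM in non-phagocytic cells, far below every wild-type pool. Libraries held between 1133577 and 3649436 estimated reads, of which 12 predicted genes with satellite-like sequence took 9.14% to 51.7%. The highest shares, 51.7% and 47.6%, were in Apoe -/- non-phagocytic pools 2 and 5. Defining microglial markers were present in every group: Cx3cr1 had medians of 1998 and 1750 CPM in wild-type phagocytic and non-phagocytic pools and of 1480 and 1981 CPM in the Apoe -/- pools. The Y-linked genes Ddx3y and Eif2s3y summed to at most 2.70 CPM in pool 5 of wild type and pools 4, 5 and 6 of Apoe -/-, in both sorts, and to at least 43.7 CPM in all other pools, so that the genotypes differed in the share of male pools. The part of sex in the results was not tested. Nothing in the labels says that the pools of a group came from independent experiments, so p-values measure the spread between these pools. In bulk libraries of sorted cells, fewer cells of a type and less RNA per cell cannot be told apart. Response here means the difference between the sorts. A change that followed uptake cannot be told apart from a difference that the cells had before it.

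No gene passed the test of the interaction (0 of 12415 genes, 0%, edgeR quasi-likelihood with Benjamini-Hochberg adjusted p under 0.05). At an unadjusted p under 0.05 there were 301 genes (2.42%), of which 139 (1.12%) had the higher response in Apoe -/- and 162 (1.3%) the lower. DESeq2 called 2 genes, the pseudogenes Gm10222 and Gm48494, which were named after their values were seen, and edgeR with no filter on low counts called 17. The same libraries did show differences between the sorts. In wild type 26 genes were called (0.209%), of which 24 rose (0.193%) and 2 fell (0.0161%). The Apoe -/- mice had 58 (0.467%), of which 50 rose (0.403%) and 8 fell (0.0644%). The mean of the 2 responses had 293 (2.36%), of which 223 rose (1.8%) and 70 fell (0.564%). With DESeq2 these 3 counts were 100, 145 and 513, and with limma on log2(FPKM + 1) they were 16, 12 and 61. The interaction is measured less precisely than the mean response: its median standard error over all genes was 0.50 log2 units against 0.25 for the mean.

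A p-value that missed the threshold does not show that the 2 responses were alike, and the intervals say how far they could differ. The 95% interval of the interaction lay within a 2-fold difference either way for 3339 genes (26.9%). Among the 293 genes called in the mean response it did so for 140 (47.8%), and among 46 lysosome genes for 33 (71.7%). The share rose with level: it was 33.2% of genes with a mean of at least 10 CPM in some group and 71.1% at 100 CPM. For the median gene the interval reached 1.03 log2 units either side of the estimate. At this number of pools and this depth, an estimate below 2-fold therefore had an interval that held 0 for most genes, even before adjustment. No estimate above 2-fold passed adjustment in this fit either. The log2 changes of the genotypes, which share no library, had a Pearson r of 0.37 across all 12415 genes and of 0.83 across the 1820 genes with a mean of at least 100 CPM in some group, and 78.7% of the latter had the same sign. Genes are not independent replicates, and these values describe the plot of 1 response against the other.

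**Figure D1:**
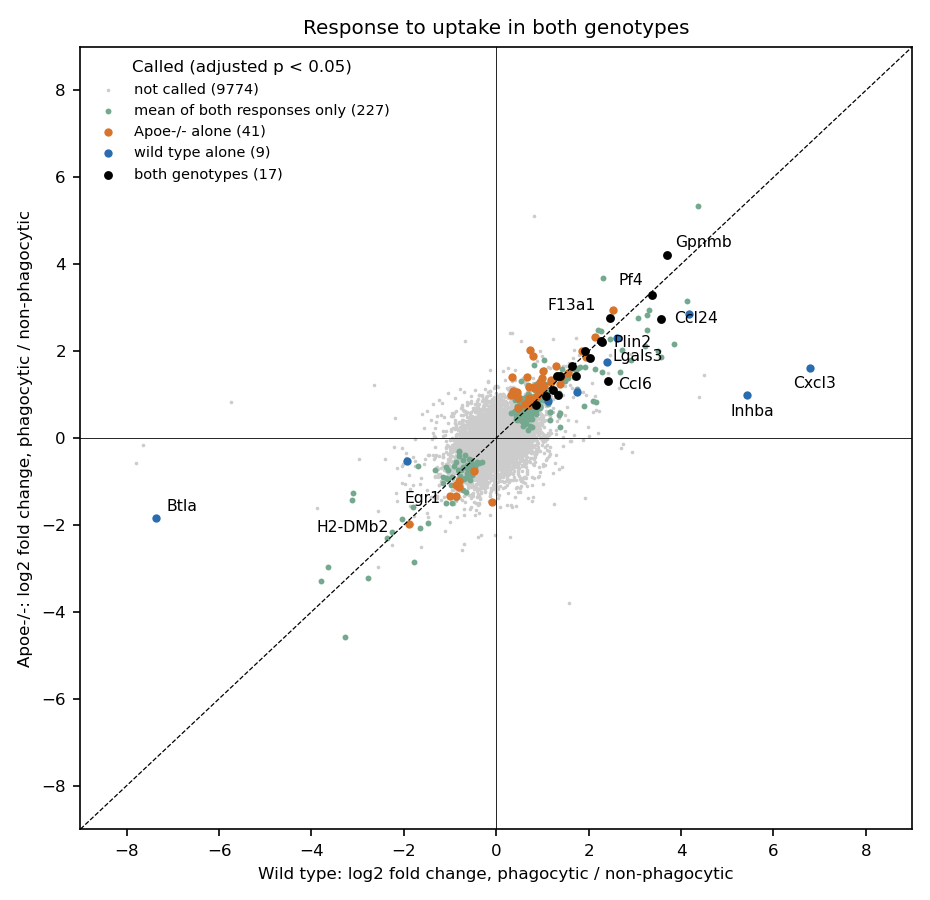
Log2 fold change between phagocytic and non-phagocytic cells in wild type (x axis, 5 pools a group) and in Apoe -/- (y axis, 6 pools a group), for genes with a mean of at least 10 CPM in some group or called in any of the 3 comparisons shown by colour. Genes on the dashed line changed equally; the 17 genes called in both genotypes lie in the upper right, Ccl6, Cxcl3 and Inhba lie below the line, and the position of Btla, which had no count in wild-type phagocytic cells, is a fitted value and no measured fold.

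The genes called in both genotypes all rose. In all, 17 genes (0.137%) passed the test in both, and each of the 17 was higher in phagocytic cells. They were the lipid droplet coat protein gene Plin2, the lysosomal genes Lamp1, Atp6v0c and Pld3, the cathepsin inhibitor gene Cstb, and the ferritin chains Fth1 and Ftl1. The others were the chemokines Ccl6, Ccl9, Ccl24 and Pf4, the MGnD-associated genes Gpnmb, Lgals3 and Lyz2, and Ninj1, F13a1 and Uap1l1. This count depends on the method and on the pools. It was 50 with DESeq2, 63 with no filter on low counts, and 4 and 0 with limma on log2(FPKM + 1) and log2(FPKM + 0.1). A fit that paired pools of equal number, which the labels do not name as shared mice, gave 89. Between 10 and 31 genes passed in both genotypes when 1 library was left out. The lowest count came without Apoe -/- non-phagocytic pool 4, the highest without wild-type non-phagocytic pool 4, and the count was 11 without each of wild-type phagocytic pool 2, wild-type non-phagocytic pool 3 and Apoe -/- non-phagocytic pool 6.

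Patterns based on motifs known for lysosomal, activator protein 1 and antioxidant regulation were searched upstream of these genes. The stretches of 3 are shown. Lamp1 and Ccl9 are shown because they hold a match, and Plin2 for comparison. Each window is the 250 bases before a RefSeq start on GRCm38.p6, read along the gene's strand. The windows of Atp6v0c, Ccl6, F13a1, Fth1, Ftl1, Gpnmb, Lgals3, Lyz2, Ninj1, Pf4 and Pld3 held no match. Lamp1 encodes a protein of the lysosome membrane, and its window (chr8:13158911-13159160, + strand) holds 4 matches to CACGTG, which is the core of the motif bound by TFEB-type factors. Ccl9 lies on the minus strand (chr11:83578637-83578886) and holds 1 match to TGANTCA. This pattern allows any base at its centre and is looser than the activator protein 1 motif, TGACTCA or TGAGTCA. The match in Ccl9 reads TGAATCA, so it fits the loose pattern only. Plin2, also on the minus strand (chr4:86670060-86670309), holds no match to CACGTG, to TGANTCA or to the antioxidant motif TGACNNNGC. Capitals mark the matches, which were searched on both strands.
Lamp1: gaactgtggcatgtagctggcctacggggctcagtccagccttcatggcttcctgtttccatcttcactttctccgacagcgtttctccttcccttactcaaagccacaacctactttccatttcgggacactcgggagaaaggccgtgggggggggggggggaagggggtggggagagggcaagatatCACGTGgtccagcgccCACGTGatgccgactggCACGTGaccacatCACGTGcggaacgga
Ccl9: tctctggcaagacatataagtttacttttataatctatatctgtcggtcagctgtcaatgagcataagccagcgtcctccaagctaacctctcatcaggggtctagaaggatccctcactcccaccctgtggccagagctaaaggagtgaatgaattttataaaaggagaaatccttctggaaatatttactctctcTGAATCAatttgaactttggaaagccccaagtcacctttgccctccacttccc
Plin2: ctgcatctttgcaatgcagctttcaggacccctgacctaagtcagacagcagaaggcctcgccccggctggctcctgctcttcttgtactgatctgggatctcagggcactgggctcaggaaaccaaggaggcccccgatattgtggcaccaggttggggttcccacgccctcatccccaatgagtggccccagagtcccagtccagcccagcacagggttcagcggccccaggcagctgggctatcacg
CACGTG was present in 22 of the 174 windowed genes that rose in the mean response (12.6%), in 4 of the 54 that fell (7.41%) and in 9.76% of the 9486 tested genes with a window. TGANTCA, counted with any base at its centre, was present in 9.77% of the risen genes, 1.85% of the fallen genes and 5.68% of the tested genes. TGACNNNGC was present in 14.9%, 18.5% and 13.6% of these. Over all 32851 windows of this length the shares were 6.02%, 6.75% and 10.2% in the same order. These shares were not tested, and a match is a run of letters, not a bound site.

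Plin2, whose product coats lipid droplets, had near-equal estimates of its change in the genotypes. It measured 233, 463, 187, 537 and 295 CPM in wild-type phagocytic pools and 103, 44.1, 44.0, 92.2 and 76.3 CPM in wild-type non-phagocytic pools. Its Apoe -/- range was from 193 to 528 CPM (median 318) in phagocytic and from 55.4 to 89.9 CPM (median 78.7) in non-phagocytic pools. The sorts did not overlap in either genotype. The log2 change was 2.26 ± 0.31 (SE) in wild type and 2.24 ± 0.28 in Apoe -/- (edgeR adjusted p 0.000628 and 0.000242), and the interaction was -0.02 with an interval of -0.85 to 0.81.

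Ccl9, a chemokine of the CC family, had levels of 442, 429, 286, 356 and 433 CPM in wild-type phagocytic pools against 132, 127, 146, 120 and 97.5 CPM in non-phagocytic ones, and 174 to 457 CPM (median 343) against 67.3 to 145 CPM (median 102) in Apoe -/-. No phagocytic pool of either genotype fell into the range of its non-phagocytic pools. Its log2 change was 1.65 ± 0.24 (SE) in wild type and 1.66 ± 0.22 in Apoe -/-. The interaction was 0.01 ± 0.31, with an interval of -0.63 to 0.65. Fth1, the ferritin heavy chain that stores iron, measured 5663, 7299, 5158, 9862 and 11230 CPM in wild-type phagocytic pools and 3284, 2362, 3111, 3682 and 3334 CPM in non-phagocytic pools. In Apoe -/- it ranged from 5611 to 14187 CPM (median 7909) and from 2702 to 4173 CPM (median 3348). The sorts stood apart in both genotypes, and the interaction of 0.11 had an interval of -0.59 to 0.82.

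Lamp1 rose in both genotypes, with an estimate that was lower in Apoe -/- and not separable from equality. It measured 392, 446, 532, 708 and 497 CPM in wild-type phagocytic pools, 231, 179, 177, 216 and 219 CPM in wild-type non-phagocytic pools, 204 to 559 CPM (median 337) in Apoe -/- phagocytic pools and 150 to 198 CPM (median 193) in Apoe -/- non-phagocytic pools. The groups did not overlap within a genotype. The interaction was -0.34, with an interval of -0.96 to 0.28. Of the 46 lysosome genes tested, 14 rose in the mean response (1.8% of all genes) and none fell. Their median log2 change was 0.45 in wild type and 0.54 in Apoe -/- against -0.01 and -0.02 over all genes. Among them were Ctsb (cathepsin B; mean response 1.12), Grn (progranulin; 0.73), Lipa, the acid lipase that frees cholesterol from esters (0.65), and Npc2, which hands cholesterol out of the lysosome (0.74). The call of Lipa was lost without most single libraries. None of these 46 had an unadjusted interaction p under 0.05, while Hgsnat, a lysosomal gene that the list does not hold, did.

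**Figure D2:**
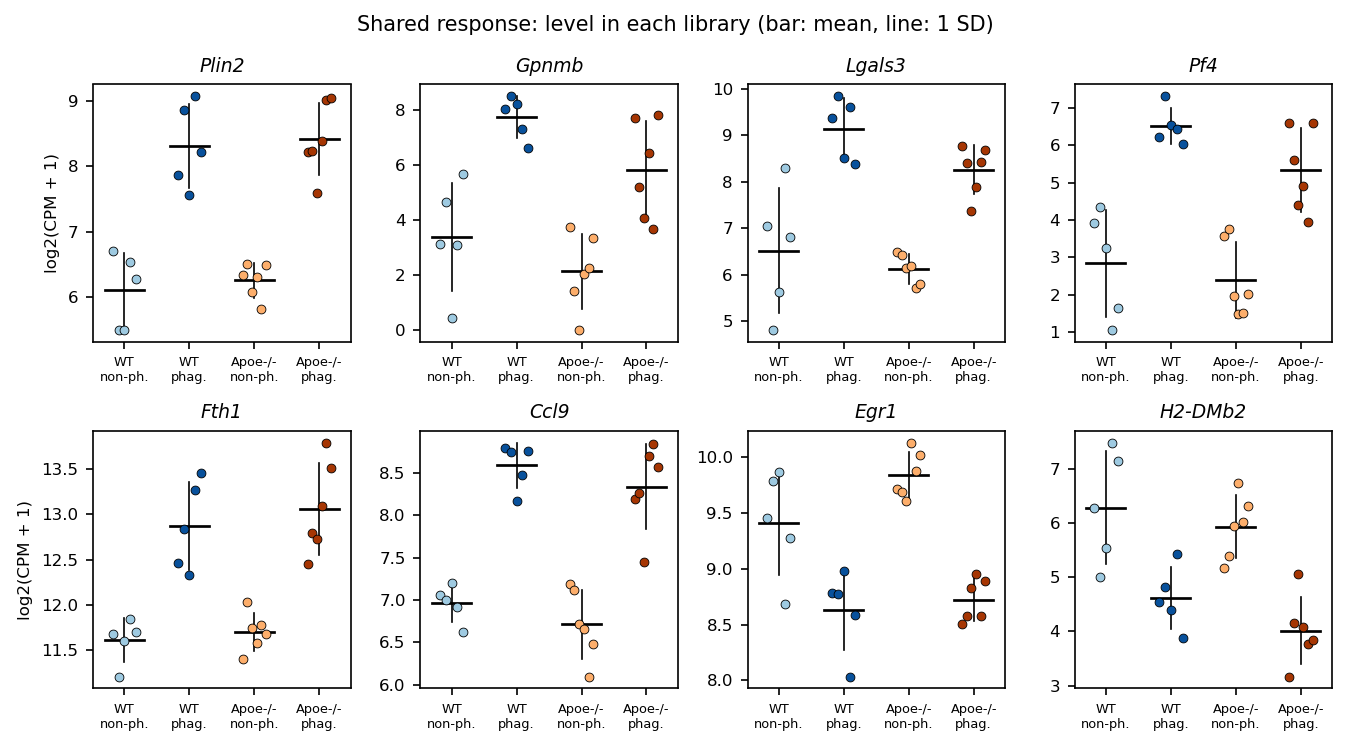
Level of 8 genes in each of the 22 libraries as log2(CPM + 1), by genotype and sort; each point is 1 pool, the bar the group mean and the line 1 SD. The phagocytic pools are higher in both genotypes for Plin2, Gpnmb, Lgals3, Pf4, Fth1 and Ccl9 and lower in mean for Egr1 and H2-DMb2.

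Gpnmb, Lgals3 and Lyz2, called in both genotypes, had lower estimated levels in Apoe -/- than in wild type in both sorts, and none of these differences between genotypes passed adjustment. Gpnmb, a glycoprotein of phagosomes and melanosomes, measured 263, 366, 299, 161 and 98.6 CPM in wild-type phagocytic pools and 7.75, 24.3, 0.373, 7.59 and 49.8 CPM in non-phagocytic pools, while the Apoe -/- pools ranged from 11.7 to 225 CPM (median 61.7) and from 0 to 12.5 CPM (median 3.46). The highest Apoe -/- non-phagocytic pool overlapped the lowest phagocytic one. The log2 change was 3.70 ± 0.80 in wild type and 4.21 ± 0.80 in Apoe -/-, and the interaction of 0.51 had a wide interval of -1.66 to 2.68.

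Lgals3, which encodes galectin-3, measured 658, 914, 361, 779 and 330 CPM in wild-type phagocytic pools and 132, 26.9, 48.1, 311 and 110 CPM in non-phagocytic pools. Its Apoe -/- range was from 164 to 434 CPM (median 341) and from 50.9 to 88.7 CPM (median 70.7). Phagocytic pools were above all non-phagocytic pools of their genotype, and the interaction was -0.08 (interval -1.25 to 1.08). For Lyz2, a lysozyme of myeloid cells, the difference between genotypes was -1.08 log2 units in phagocytic and -1.15 in non-phagocytic cells, with an interaction of 0.06; neither difference passed adjustment (edgeR adjusted p 0.579 and 0.999). Of the 17 genes called in both genotypes, 14 had the lower estimate in Apoe -/- in phagocytic cells and 14 in non-phagocytic cells, with median differences of -0.43 and -0.22 while over all genes 50.5% and 50.3% had the lower estimate. Only 4 genes (0.0322%) passed the test between genotypes in phagocytic cells and 2 (0.0161%) in non-phagocytic cells; Apoe and the amino acid transporter gene Slc1a5 were lower in both, Apoc2 was lower in phagocytic cells, and Gm1840 was higher there.

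Monocyte markers moved with these lower levels. All 9 of the 9 tested had a lower estimate in Apoe -/- phagocytic cells and 8 of 9 in non-phagocytic cells, with medians of -1.58 and -1.13 log2 units. Their median change between the sorts was 0.64 in wild type and -0.03 in Apoe -/-. The median interaction of these markers was -0.54, with 1 of 9 positive, and none had an unadjusted interaction p under 0.05 (edgeR). The summed level of the list was 1107 to 3495 CPM in wild-type phagocytic, 631 to 3235 in wild-type non-phagocytic, 408 to 1252 in Apoe -/- phagocytic and 519 to 1217 in Apoe -/- non-phagocytic pools, and none of the 9 markers was at 0 throughout a group. Border macrophage markers differed between the sorts: 8 of 9 tested rose in the mean response (1.8% of all genes), among them Pf4, F13a1, Folr2, Lyve1, Mrc1 and Stab1, and no member fell. That list summed to 624.7 to 1233 CPM in wild-type phagocytic against 274 to 443 CPM in non-phagocytic pools, and to 453 to 1087 against 208 to 347 CPM in Apoe -/-, with none of the 10 markers at 0 throughout a group. The calls of Mrc1 and Lyve1 were lost without single libraries, wild-type phagocytic pool 2 and non-phagocytic pool 5 for both. Its median interaction was -0.08. The part of these cells in the results was not tested.

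Pf4, a chemokine gene expressed by platelets and border macrophages, measured 74.2, 158, 92.6, 84.7 and 64.8 CPM in wild-type phagocytic pools against 14.1, 19.4, 8.57, 1.08 and 2.17 CPM in non-phagocytic pools. The Apoe -/- pools ranged from 14.4 to 95.5 CPM (median 38.1) and from 1.80 to 12.6 CPM (median 2.98), so that the sorts stood apart in both genotypes. The log2 changes were 3.37 ± 0.61 and 3.29 ± 0.59, and the interaction interval, -1.76 to 1.59, allows a large difference in either direction. Over the 38 MGnD genes tested, 17 rose in the mean response (1.8% of all genes) and none fell. The risen genes included Spp1, Anxa5, Cybb, Cd63 and Fabp5, the last not without wild-type non-phagocytic pool 1. The median change of the 38 was 0.63 in wild type and 0.59 in Apoe -/-, and their median interaction was -0.07. Members without a call were Clec7a (mean response 0.36), Axl (0.08) and Itgax (-0.57).

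Spp1, which encodes osteopontin, was higher in each wild-type phagocytic pool than in any Apoe -/- one. It measured 1343, 3291, 817, 842 and 691 CPM in wild-type phagocytic pools and 123, 87.1, 126, 196 and 550.3 CPM in non-phagocytic pools, against 34.3 to 614 CPM (median 147) and 60.1 to 145 CPM (median 88.0) in Apoe -/-. Wild-type sorts stood apart, while the Apoe -/- sorts overlapped. Its interaction was -1.18 with an interval of -2.93 to 0.57 (unadjusted p 0.177), which includes 0, and left-out libraries moved it between -1.89 and -0.58.

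Fewer genes fell. The 70 that fell in the mean response had a negative estimate in both genotypes, which their choice by the mean favours, and none was called in both. Egr1, an immediate early transcription factor gene, measured 439, 436, 505, 261 and 382 CPM in wild-type phagocytic pools and 702, 880, 935, 411 and 617 CPM in non-phagocytic pools. In Apoe -/- it ranged from 363 to 496 CPM (median 417) and from 776 to 1119 CPM (median 889). The wild-type sorts overlapped through non-phagocytic pool 4, and the Apoe -/- sorts did not. The log2 change was -0.81 ± 0.21 in wild type (edgeR adjusted p 0.123) and -1.12 ± 0.19 in Apoe -/- (edgeR adjusted p 0.00624). The interaction was -0.31 with an interval of -0.89 to 0.27. The call in a single genotype therefore does not show a difference between them, and the interval does not show that they are equal. Of 28 immediate early genes, 7 fell in the mean response (0.564% of all genes) and none rose: Egr1, Egr2, Jun, Junb, Myc, Btg2 and Zfp36. The calls of Junb and Zfp36 were lost without any of several single libraries.

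H2-DMb2, a chaperone gene of MHC class II loading, measured 22.3, 27.3, 20.2, 42.4 and 13.8 CPM in wild-type phagocytic pools and 76.1, 31.0, 45.5, 178 and 140 CPM in non-phagocytic pools. The Apoe -/- pools ranged from 7.98 to 32.3 CPM (median 14.6) and from 34.8 to 106 CPM (median 62.6). Only the Apoe -/- sorts stood apart; wild-type phagocytic pool 4 was above the lowest non-phagocytic pool. The log2 changes of -1.90 and -1.97 gave an interaction of -0.07 (interval -1.24 to 1.09). Of 13 MHC class II genes, 2 fell (0.564% of all genes), H2-DMb2 and H2-Oa, the latter losing its call without single libraries of each group. Dendritic cell markers moved with them: their sum was 28.0 to 99.7 CPM in wild-type phagocytic against 67.7 to 531 CPM in non-phagocytic pools, and 38.8 to 121 against 101 to 232 CPM in Apoe -/-. H2-DMb2 and Btla belong to that list, and Btla was at 0 in all 5 wild-type phagocytic pools. Their part in the result was not tested.

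Genes called in a single genotype had an estimate of the same sign in the other. Calls in wild type alone numbered 9, of which 7 rose and 2 fell. In Apoe -/- 5 of the 9 had an unadjusted p under 0.05 (9.93% of all genes did), and neither of the 2 that fell was among them. Calls in Apoe -/- alone numbered 41, of which 33 rose, and 34 of the 41 had an unadjusted p under 0.05 in wild type (7.74% of all genes). Of these 9 and 41, 4 and 5 had an unadjusted interaction p under 0.05. The 24 genes that rose in wild type, 17 of them called in both genotypes, had a median change of 2.14 there and 1.64 in Apoe -/-. The 50 that rose in Apoe -/-, with the same 17 among them, had a median of 1.35 there and 1.14 in wild type. Each median was larger in the genotype used to choose the genes. Sorts whose pools did not overlap were found in wild type for 187 genes upward (1.51%) and 79 downward (0.636%), and in Apoe -/- for 65 (0.524%) and 43 (0.346%). No gene had sorts that stood apart in opposite directions in the genotypes (0 genes, 0%), while 22 (0.177%) stood apart upward in both and 2 (0.0161%) downward in both.

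**Figure D3:**
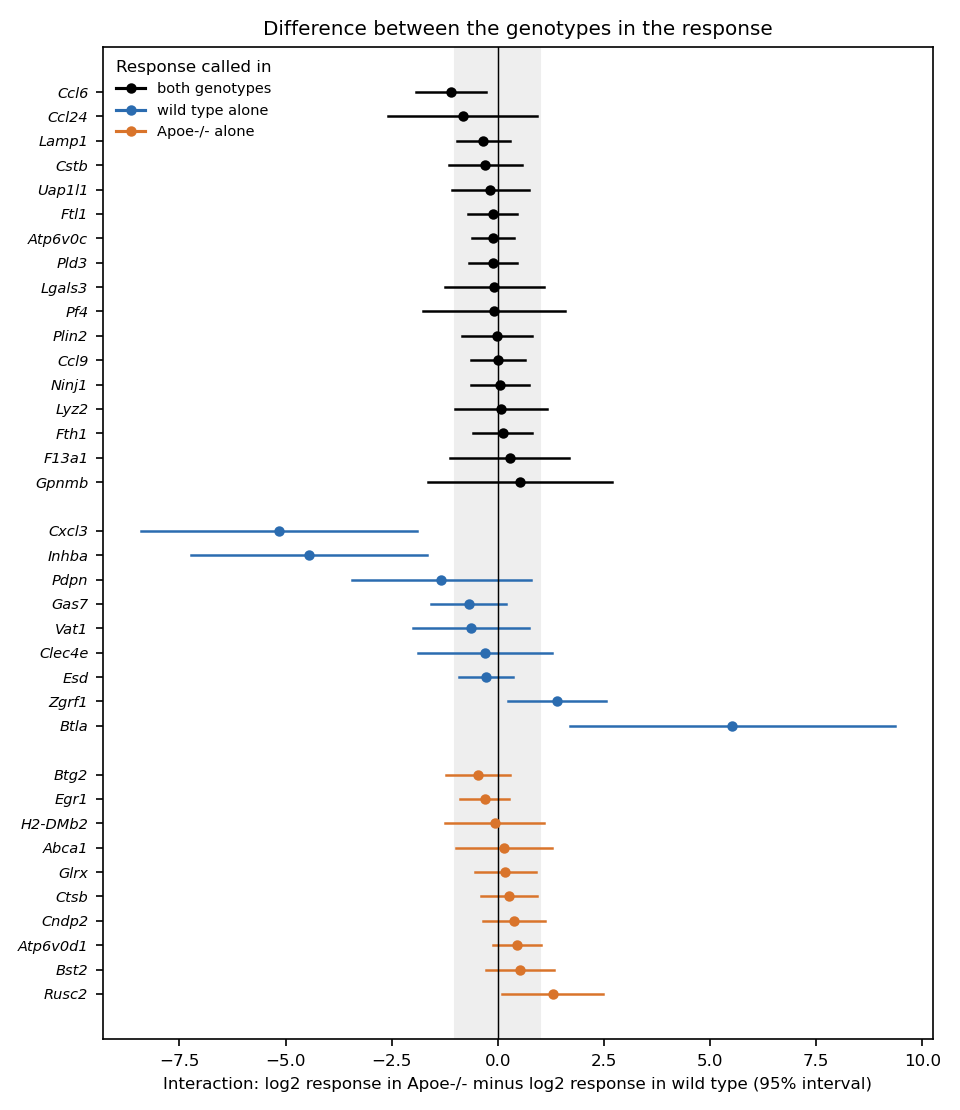
Interaction with its 95% interval (log2 response in Apoe -/- minus log2 response in wild type) for the 17 genes called in both genotypes, the 9 called in wild type alone and 10 called in Apoe -/- alone; the grey band marks a 2-fold difference either way. The interval of Ccl6 is the one of the 17 that leaves out 0; those of Cxcl3, Inhba, Zgrf1, Btla and Rusc2 also do before adjustment, and that of Btla is fitted against a group without counts.

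Ccl6 was the 1 gene of the shared 17 whose interaction interval left out 0, as the intervals of 301 of all 12415 genes (2.42%) did. This CC chemokine gene (chr11:83587882-83593087, GRCm38) measured 934, 993, 437, 789 and 558 CPM in wild-type phagocytic pools and 152, 147, 161, 165 and 71.5 CPM in non-phagocytic pools. In Apoe -/- it ranged from 182 to 489 CPM (median 270) and from 73.0 to 179 CPM (median 121). The sorts stood apart in both genotypes, and the highest Apoe -/- phagocytic pool reached only the lower part of the wild-type range. The log2 change was 2.41 ± 0.31 in wild type and 1.31 ± 0.28 in Apoe -/-, an interaction of -1.10 ± 0.41 with an interval of -1.94 to -0.27. Its unadjusted p was 0.0115 and did not survive adjustment over 12415 genes. The estimate stayed between -1.30 and -0.94 when any 1 library was left out. Ccl9, which lies beside Ccl6 on chromosome 11, had an interaction of 0.01.

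Cxcl3, a neutrophil-attracting chemokine gene (chr5:90786103-90789600, GRCm38), had a large estimated difference that rested on few pools. It measured 61.7, 42.5, 54.9, 92.8 and 236 CPM in wild-type phagocytic pools and 0.705, 0.374, 0.373, 0.542 and 2.17 CPM in non-phagocytic pools, against 1.67 to 82.0 CPM (median 10.9) and 0 to 49.6 CPM (median 1.03) in Apoe -/-. The wild-type sorts stood far apart and the Apoe -/- sorts overlapped through non-phagocytic pool 2, where it was 49.6 CPM and at most 1.26 CPM in the other 5 pools. The interaction was -5.16 ± 1.58 (unadjusted p 0.00309), and without that pool it was -1.99 (unadjusted p 0.203). When no filter on low counts was applied it passed adjustment (adjusted p 5.7e-05, edgeR).

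Inhba, which encodes the activin A subunit, was also higher in wild-type phagocytic cells, in some pools only. Its levels there were 0.781, 38.3, 1.29, 11.6 and 95.5 CPM, against 0, 0.374, 1.49, 1.08 and 0 CPM in non-phagocytic pools, and 1.67 to 10.6 CPM (median 4.95) against 0.544 to 5.88 CPM (median 2.18) in Apoe -/-. Wild-type phagocytic pools 1 and 3 lay within the non-phagocytic range, and the sorts overlapped in both genotypes. The interaction was -4.44 ± 1.35 (unadjusted p 0.00289) and -3.32 without wild-type phagocytic pool 5; with no filter on low counts it passed adjustment (edgeR adjusted p 0.028). Of 21 TGF-beta and activin genes Inhba was the 1 called in the mean response (2.36% of all genes).

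Hgsnat, which encodes a lysosomal acetyltransferase of heparan sulfate breakdown, had estimates of opposite sign in the genotypes, 1.17 in wild type and -0.38 in Apoe -/-, neither called. It measured 62.5, 42.8, 41.2, 53.5 and 48.0 CPM in wild-type phagocytic pools and 13.4, 27.7, 21.6, 19.0 and 27.3 CPM in non-phagocytic pools, and ranged from 9.47 to 34.1 CPM (median 18.7) and from 15.1 to 40.1 CPM (median 26.7) in Apoe -/-. The wild-type sorts stood apart and the Apoe -/- sorts overlapped. The interaction was -1.55 ± 0.44 (unadjusted p 0.00171), and on counts scaled for transcript length it was -0.44 (unadjusted p 0.451).

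Zfp180, a zinc finger gene, had the smallest unadjusted p of the named genes (0.000787). It measured 37.9, 23.8, 15.4, 29.5 and 22.2 CPM in wild-type phagocytic pools and 21.8, 26.2, 12.3, 10.8 and 17.8 CPM in non-phagocytic pools, against 8.81 to 23.4 CPM (median 13.4) and 25.7 to 40.3 CPM (median 31.2) in Apoe -/-. The wild-type sorts overlapped, while the Apoe -/- sorts stood apart with the phagocytic pools lower. Cep19, a centrosomal gene, measured 10.2, 15.1, 8.57, 16.7 and 8.44 CPM in wild-type phagocytic pools and 0, 3.74, 0.373, 2.17 and 2.17 CPM in non-phagocytic pools. Both Apoe -/- sorts covered its wild-type phagocytic range, from 2.51 to 19.96 CPM (median 7.33) and from 3.77 to 22.7 CPM (median 9.82). The interactions were -1.63 ± 0.43 and -2.93 ± 0.85. The other genes named on the lower side, Carm1, Ppp1r3d, Rbm42, Tbl2 and Zbtb14, had interactions of -1.82, -1.38, -1.12, -0.86 and -1.40.

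On the higher side the estimates were smaller. Top2b, which encodes a DNA topoisomerase, measured 17.2, 19.6, 12.9, 18.4 and 22.2 CPM in wild-type phagocytic and 31.0, 22.1, 20.1, 26.6 and 29.9 CPM in non-phagocytic pools, while in Apoe -/- it ranged from 19.7 to 30.9 CPM (median 25.8) and from 13.8 to 23.5 CPM (median 17.4). The sorts overlapped in both genotypes, with the means in opposite order. Its interaction was 1.02 ± 0.32 (unadjusted p 0.00411). Cdc27, of the anaphase-promoting complex, had 5.08, 10.3, 14.1, 14.1 and 18.2 CPM against 7.75, 23.6, 23.1, 28.7 and 29.5 CPM in wild type, and 16.8 to 35.6 CPM (median 20.8) against 6.72 to 22.98 CPM (median 14.5) in Apoe -/-. Its sorts overlapped in both genotypes, and its interaction was 1.495 ± 0.52. Chd8, Mrps30, Ptgr2, Thoc1, Tm9sf3, Trmt10c, Wiz and Zer1 had interactions between 0.76 and 1.47. None of these 10 had sorts standing apart in Apoe -/-, and none passed adjustment (smallest edgeR adjusted p over all genes 1.00).

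**Figure D4:**
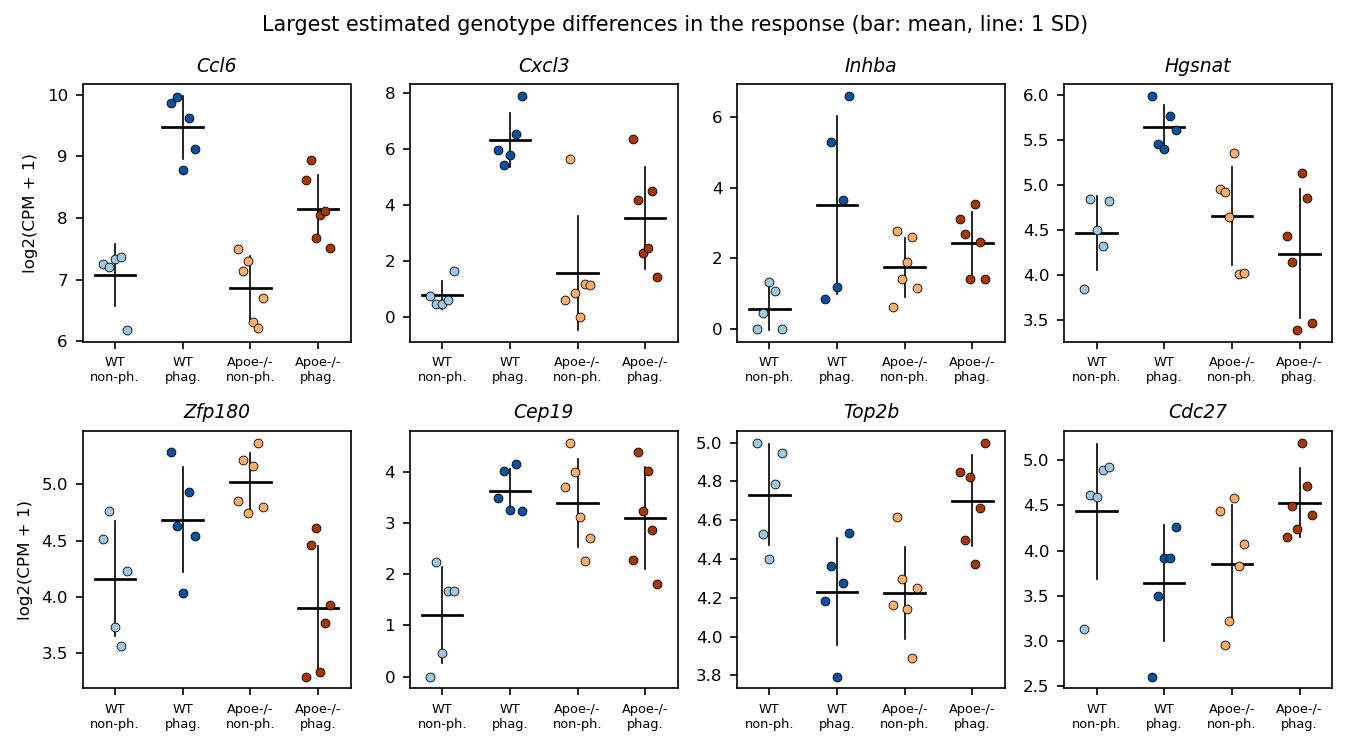
Level of 8 genes in each library as log2(CPM + 1), by genotype and sort, with the group mean (bar) and 1 SD (line). Ccl6 rises in both genotypes, with the smaller estimate in Apoe -/-; Cxcl3 has 1 high Apoe -/- non-phagocytic pool; Top2b and Cdc27 have the sorts in opposite order in the genotypes, and none of the 8 interactions passed adjustment.

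Genes called in a single genotype mostly had interaction intervals that held 0, 5 of 9 in wild type alone and 36 of 41 in Apoe -/- alone. In wild type alone these were Clec4e, Gas7, Pdpn, Vat1, Esd, Cxcl3 and Inhba, which rose, and Zgrf1 and Btla, which fell. Pdpn, podoplanin, had a log2 change of 4.18 in wild type and 2.85 in Apoe -/-, and Clec4e, a receptor for mycobacterial glycolipid and dead cells, of 2.61 and 2.30. Btla, an inhibitory receptor gene of lymphoid and dendritic cells, measured 7.05, 8.97, 3.73, 12.5 and 15.6 CPM in wild-type non-phagocytic pools and was at least 40.1-fold lower in phagocytic ones, taking 3 counts over the 5 libraries as the floor. Its Apoe -/- pools ranged from 0 to 4.32 CPM (median 0) in phagocytic and from 0 to 8.85 CPM (median 4.24) in non-phagocytic cells, where the sorts overlapped.

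In Apoe -/- alone, the 10 named genes were Abca1, Atp6v0d1, Bst2, Cndp2, Ctsb, Glrx and Rusc2, which rose, and Btg2, Egr1 and H2-DMb2, which fell. Abca1, the transporter that loads cholesterol onto lipoproteins, had a log2 change of 2.00 ± 0.38 in Apoe -/- (edgeR adjusted p 0.0125) and 1.85 ± 0.42 in wild type (edgeR adjusted p 0.0568), with an interaction of 0.15. Rusc2 measured 14.8, 18.02, 10.7, 19.7 and 35.5 CPM in wild-type phagocytic pools against 4.23, 13.8, 14.9, 11.9 and 13.9 CPM, and 10.8 to 44.6 CPM (median 27.8) against 2.49 to 10.99 CPM (median 6.92) in Apoe -/-. The sorts overlapped in both genotypes, and its interaction was 1.29 ± 0.58 (unadjusted p 0.0345). Abcg1, another cholesterol exporter, measured 67.2, 49.9, 38.2, 110 and 65.7 CPM in wild-type phagocytic pools against 30.3, 19.4, 24.2, 87.8 and 31.2 CPM, and 69.6 to 304 CPM (median 195) against 22.7 to 76.2 CPM (median 51.8) in Apoe -/-. Overlap was present in both genotypes, and its interaction of 1.10 had an interval of -0.12 to 2.32. Of 17 LXR target and cholesterol efflux genes, Abca1, Abcg1 and Npc2 rose in the mean response (1.8% of all genes).

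Other gene lists showed the genotypes side by side. Among 35 type I interferon genes 5 rose in the mean response (1.8% of all genes), Bst2, Ifih1, Ifitm3, Irf7 and Oas1a. Ifih1 lost its call without most single libraries, and Ifitm3 without wild-type phagocytic pool 4 or 5 or Apoe -/- phagocytic pool 5. The list's median change was 0.40 in wild type and 0.74 in Apoe -/-, and 31 of 35 interactions were positive with a median of 0.29, against 6020 of 12415 and -0.01 over all genes. No member had an unadjusted interaction p under 0.05, and members are not independent of each other. Irf7, a transcription factor of the interferon response, had an interaction of 0.87 (interval -0.32 to 2.06). Of 22 MHC class I genes 5 rose, and H2-T23 had an interaction of 1.05 (interval 0.22 to 1.88, unadjusted p 0.0149).

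Proliferation genes leaned the other way. Of 30 tested, 1 was called in the mean response (2.36% of all genes), Pola1, which fell by 0.97 on the log2 scale. The list's median change was -0.22 in wild type and -0.78 in Apoe -/-. None of the 30 interactions was positive, with a median of -0.53. Plk1 and Ube2c, genes of mitosis, had unadjusted interaction p of 0.0495 and 0.0253, at means of 1.18 to 15.3 CPM over the groups. In the complement list 2 of 15 rose (1.8% of all genes), C3 and C3ar1, the latter losing its call without single libraries of each group. C1qc, a chain of the initiating complex, measured 1101, 1570, 2218, 854 and 770 CPM in wild-type phagocytic pools against 652, 740, 783, 290 and 567 CPM, and 326 to 1195 CPM (median 443) against 294 to 679 CPM (median 564) in Apoe -/-. Its sorts overlapped in both genotypes, and its interaction was -1.02 (interval -1.96 to -0.09, unadjusted p 0.0324).

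Calls in both genotypes were 1 of 23 for lipid droplets and fatty acids (Plin2) and 2 of 25 for oxidative stress and iron (Fth1 and Ftl1). Over all genes the share was 0.137%. The interaction intervals of these lists lay within 2-fold for 7 (30.4%) and 9 (36%), against 26.9% of all genes. In the mean response 1.8% of all genes rose and 0.564% fell, the shares beside which the list counts that follow stand. Of the 23 lipid droplet and fatty acid genes 6 rose and 1 fell in the mean response. The risen genes were Plin2, Fabp3, Fabp5, Hilpda, Lipa and Cpt1a, and the 1 that fell was Ppard, a nuclear receptor gene, whose call was lost without most single libraries. Cpt1a, the enzyme that admits fatty acids to mitochondria, had an interaction of 0.71 (interval 0.04 to 1.39, unadjusted p 0.0386). Of the 25 oxidative stress and iron genes 8 rose and none fell, including Hmox1 (haem oxygenase; 1.43 in wild type, 1.58 in Apoe -/-), Gstm1 (2.52 and 2.94) and Prdx6 (1.37 and 0.53). Of 30 genes for engulfment and phosphatidylserine recognition 3 rose, Abca1, Msr1 and Stab1, and of 22 glycolysis genes 3 rose, Aldoa, Pgk1 and Pkm. Pgk1 and Pkm lost their calls without most single libraries, and Msr1 without wild-type phagocytic pool 5. No call was made among 43 oxidative phosphorylation genes, 24 endoplasmic reticulum stress genes, 23 cholesterol synthesis genes or 30 inflammatory cytokine and NF-kB genes. For oxidative phosphorylation 39 of the 43 intervals lay within 2-fold, against 71.1% for all genes with a mean of at least 100 CPM in some group. The homeostatic microglia list had 2 of 35 members fall, Egr1 and Jun, which are also immediate early genes. Its median change was -0.37 in wild type and -0.47 in Apoe -/-, against -0.01 and -0.02 over all genes. A positive mean response was seen in 5 of the 35. P2ry12 and Tmem119, defining homeostatic genes, had mean responses of -0.79 ± 0.35 and -0.28 ± 0.30 and were not called. P2ry12 was called in 2 of 14 alternatives other than single left-out libraries.

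**Figure D5:**
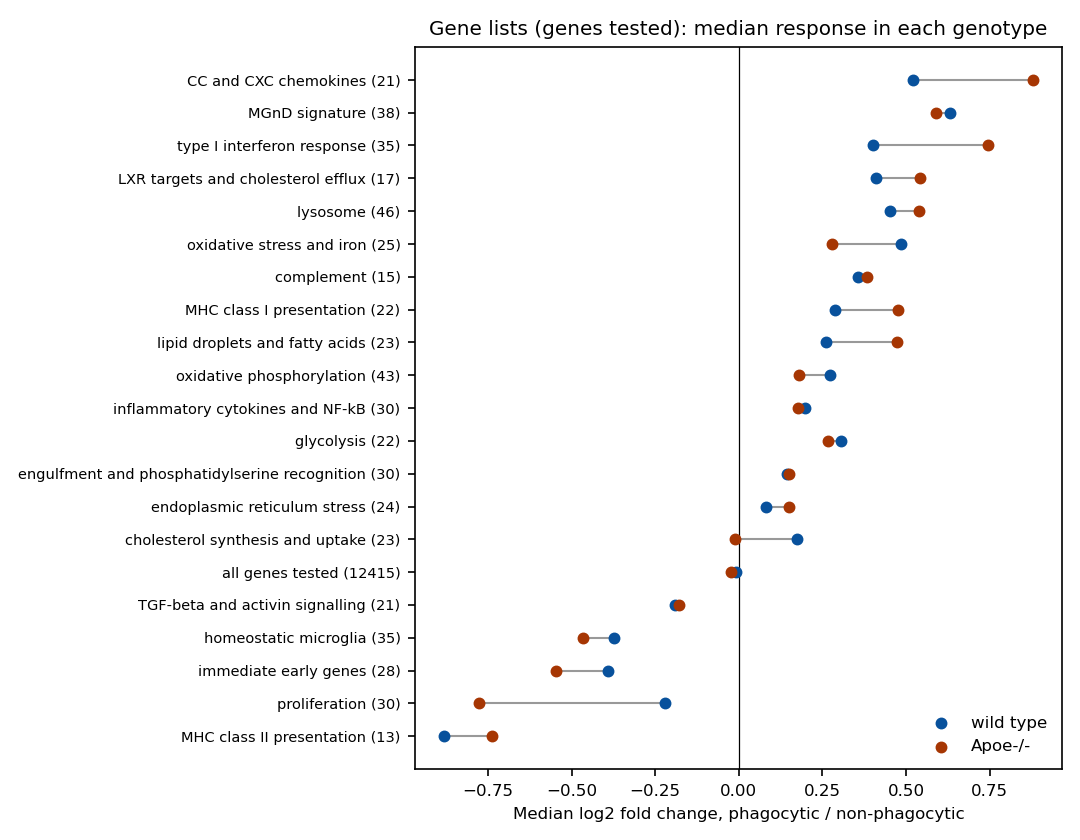
Median log2 change between phagocytic and non-phagocytic cells in wild type and in Apoe -/- for each gene list, with the number of genes tested in brackets and all genes tested as reference. The medians of the interferon list (0.40 and 0.74) and the proliferation list (-0.22 and -0.78) differ between genotypes while those of the MGnD list (0.63 and 0.59) nearly coincide; no list was tested.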

How the data were processed

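RNA-seq of the 22 pools was deposited as 1 transcript table per library, in which the authors give estimated counts and TPM from Salmon 1.4.0, per the submitters' processing notes, which also name R 4.0.3, DESeq2 1.30.1 and the build mm10. A gene table in FPKM made by the authors and deposited for the series, per the file headers, served only as an alternative. Its 16734 genes all reach at least 5.00 FPKM in some sample, so it was filtered before deposit. TPM values, which the authors deposited beside the counts, were not tested.

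Estimated counts were summed per gene through GENCODE M21 (116072 of 116248 transcripts matched, 35596 genes) and rounded. Reads of unmatched transcripts, 0.118% to 0.262% of a library, were left out. R 4.3.3 with edgeR 4.0.16 normalised by TMM, filtered by group and fitted 4 group means to all 22 libraries, testing by quasi-likelihood (glmQLFTest) with Benjamini-Hochberg adjustment at 0.05 over 12415 genes. CPM are TMM-normalised. Standard errors and 95% intervals come from the test statistic, or from the fitted weights where that statistic was near 0. Alternatives used limma 3.58.1, DESeq2 1.42.0, other scalings, filters and left-out libraries. The fits were checked on simulated data. No libraries were copies of each other. Members and gene lists were chosen with earlier results of these data known. Named genes are those called in both genotypes, those called in 1 genotype (at most 10), the strongest shared changes, the 10 protein-coding genes with the smallest interaction p in each direction at a mean of at least 10 CPM in some group, and list members. Strand use is not given in the sources used here, so overlapping and near-identical genes are uncertain. Levels near 1 CPM rest on a few reads.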

Additional observations from a re-analysis of the deposited data

Results flagged for a closer look

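Groups were searched for a library that stood far from the others of its group by Dixon's criterion. The 96 group values were those of the genes given by library, of total reads and of the satellite-like share. Of these, 11 stood out, where chance flags about 1 in 20 groups of normally distributed values. The CPM were not put on a log scale for this search.

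The gene Cxcl3 appears 4 times: it was highest in wild-type phagocytic pool 5 (236 CPM), wild-type non-phagocytic pool 5 (2.17 CPM), Apoe -/- phagocytic pool 1 (82.0 CPM) and Apoe -/- non-phagocytic pool 2 (49.6 CPM). Spp1 was highest in wild-type phagocytic pool 2 (3291 CPM) and in wild-type non-phagocytic pool 5 (550.3 CPM). Apoe was highest in wild-type phagocytic pool 2 (5145 CPM). Abcg1 was highest in wild-type non-phagocytic pool 4 (87.8 CPM), and H2-DMb2 in Apoe -/- phagocytic pool 3 (32.3 CPM). The low values were Ccl6 in wild-type non-phagocytic pool 5 (71.5 CPM) and Rusc2 in wild-type non-phagocytic pool 1 (4.23 CPM).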

How the results depend on the processing

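The interaction had no call in any alternative except DESeq2 (2 genes) and no filter on low counts (17 genes). The number of genes called in both genotypes, 17, was 50 with DESeq2, 63 with no filter, 34 with the share of satellite-like reads as covariate, 27 with limma-voom sample weights, 4 and 0 with limma on log2(FPKM + 1) and log2(FPKM + 0.1), 11 without Apoe -/- non-phagocytic libraries 2 and 5 together, and 10 to 31 over single left-out libraries. In wild type, 26 calls became 100, 122, 59, 58, 16 and 2 under the first 6 of these in the same order, and 13 to 64 over left-out libraries (13 without wild-type non-phagocytic 3, 14 without wild-type phagocytic 2, 16 without wild-type non-phagocytic 2 or 5, 64 without wild-type non-phagocytic 4). In Apoe -/-, 58 calls became 145 with DESeq2, 137 with no filter, 12 and 4 on FPKM, 16 without the 2 satellite-rich libraries, and 18 to 89 over left-out libraries (18, 29, 33 and 89 without phagocytic 5, 4, 6 and 2, and 24, 27, 38 and 38 without non-phagocytic 4, 6, 3 and 5). The mean response, 293 calls, became 513 with DESeq2 (327 up, 186 down), 444 with voom weights, 61 and 36 on FPKM, and 191 to 355 over left-out libraries, the lowest without Apoe -/- phagocytic 5. The mean effect of Hgsnat, 0.40, turned to -0.45 and -0.49 on log2(FPKM + 1) and log2(FPKM + 0.1). Of the named genes called in the mean response, 43 lost the call on log2(FPKM + 1), 53 on log2(FPKM + 0.1), 16 on length-scaled counts and 16 without at least 1 single library. The cause of these shifts was not tested.

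With the replicate block, which pairs libraries of the same pool number within a genotype, the calls were 0 in the interaction (440 unadjusted), 89 in both genotypes, 135 in wild type, 255 in Apoe -/- and 644 in the mean. The labels do not say that a number marks shared mice. Pools were of 1 sex, and the summed Y-linked genes were low, or not, in both sorts of each of the 11 numbers, which does not show that the mice were shared. All 11 own-number correlations were positive, and a library correlated best with its own number in 7 of 11 pools. Wild-type pool 1 (0.04), Apoe -/- pool 4 (0.063) and pool 6 (0.096) were under 0.1, the bound used here, so the numbers were not taken as pairs. Apoe -/- pools 4 and 6 still correlated best with their own number, so these values do not settle whether mice were shared. Depth limits the genes near 1 CPM most.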
